A study of Mus musculus with 6 samples.

Results

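A set of 37 genes of DNA damage signalling and repair was compared between Magic-F1 and control samples labelled as satellite cells. The genes were taken by name across the repair routes, by a rule that uses no measured value. The set was, however, chosen with earlier results of these data known. Probes were found for each of the 37 genes, Rad54b under an older clone name. Of these, 35 gave a probe bright enough to test, among 13033 tested genes in all. Per the labels, RNA came from satellite cells, the resident stem cells of skeletal muscle fibres, of female mice, and was taken in proliferation. The cell type is the labels' alone. In Magic-F1 the satellite cell marker Pax7 was below background, and further marker values are given below. The Magic-F1 group (n = 3) came from mice homozygous for Magic-F1 (Magic-F1+/+), an engineered ligand of the MET receptor built from domains of hepatocyte growth factor. The control group (n = 3) carries MLC3F in its sample titles and the Magic-F1 group carries Omo. The labels explain neither tag, nor do they name the promoter that drives Magic-F1, the control genotype, the age of the mice or any sort of the cells. Although the series text speaks of biological triplicates, no label names separate mice or cultures. Within each group, the 3 samples share a single source name tagged rep1, and only their titles number them apart. Correlations between arrays of a group were 0.996 to 0.997. Whether each group stems from a single source was not tested. The p-values therefore reflect the spread between these 6 samples alone, and part or all of it may be technical.

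DNA damage is handled by routes that differ in what they mend. Homologous recombination copies a sister DNA molecule to mend double-strand breaks, and the Fanconi anaemia route unhooks crosslinks between strands. End joining ligates broken ends directly, mismatch repair corrects copying errors, nucleotide excision repair cuts out bulky lesions, and base excision repair replaces single damaged bases. Many genes of recombination and of the Fanconi route are transcribed mainly in cells that are copying their DNA, and E2F factors are known to drive that transcription. In muscle, cultured mouse myoblasts are known to lose base excision repair factors such as Xrcc1 when they fuse into myotubes.

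Signals were scaled to the 75th percentile of each array, which was 341 to 356 on the Magic-F1 arrays and 275 to 292 on the control arrays in processed signal. The share of spots well above background was 49.2% to 52.0% per array, and no spot was saturated. The groups differed in many genes besides those of repair, and markers of several cell types moved with them. Of 9 tested satellite cell and myoblast markers, 8 were lower and 1 higher. Their summed linear signal was 34.0 to 35.4 on the Magic-F1 arrays and 428 to 464 on the control arrays. Myog (log2 signal 3.24 in Magic-F1 and 7.88 in control) and Des (3.49 and 6.83) were the brightest in both groups. They weigh most in the sums, while Pax7 (−3.10 in control) adds little. Pax7, which marks satellite cells, was below background on all 3 Magic-F1 arrays and well above it on all 3 control arrays, while Myf5 and Pax3 were below background in both groups. Macrophage markers were higher for 13 of 14 (summed signal 1466 to 1533 in Magic-F1, 422 to 449 in control), with Cd5l and Mrc1 below background on all control arrays. The lower one, Lyz2, was the brightest macrophage marker in both groups (log2 signal 8.18 in Magic-F1 and 8.48 in control), so it weighs most in the sums. Adipocyte markers were higher for 10 of 10 (782 to 821 in Magic-F1, 148 to 151 in control), with Retn below background on all control arrays. Granulocyte markers were lower for 9 of 10 (1.90 to 1.98 in Magic-F1, 587 to 634 in control), and S100a9, Camp, Ltf, Ngp and Ms4a3 were among those below background on all Magic-F1 arrays. The higher one, Csf3r, was the brightest of them in Magic-F1 (log2 signal 0.71, and −2.75 in control), so it weighs most in the Magic-F1 sum. In the control sum S100a9 weighs most (log2 signal 8.89 in control). Endothelial markers were lower for 6 of 7 (0.247 to 0.283 in Magic-F1, 8.35 to 8.76 in control), with Pecam1, Cdh5, Robo4 and Sox18 below background on all Magic-F1 arrays. Fibroblast markers were lower for 4 and higher for 4 of 8 (894 to 916 in Magic-F1, 1078 to 1104 in control). The part of these cell types in the repair gene results below was not tested.

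Most of the listed genes of recombination and of the Fanconi route, and both subunits of the end joining factor Ku, fell in Magic-F1. Among the 4 listed nucleotide excision repair genes 3 were higher, but the call of Xpa, one of these, was lost under several other settings. For the 12 other tested genes of that route the split was 6 lower and 5 higher, so the route as a whole showed no clear rise. By limma's test with adjustment over all probes tested, 23 of the 35 tested members were lower (65.7%, where 48.7% of all tested genes were lower) and 9 were higher (25.7%, where 40.5% of all tested genes were). The other 3, Atr, Msh3 and Msh6, did not pass the test, and Bard1 and Fanca were too dim to be tested. Since 89.1% of all tested genes passed in one direction or the other, passing the test does not set these genes apart. A fall of at least 2-fold was seen in 20 members (57.1%, against 28.9% of all tested genes), and one of at least 8-fold in 4 members (11.4%, against 5.77%). A rise of at least 2-fold was seen in 2 members, Xpc and Fancg (5.71%, against 23.6%). The median log2 change over all 37 members was −1.11, and that of all tested genes was −0.17. The 37 include Bard1 and Fanca, which were not tested, while the set of all tested genes holds no such gene. Less RNA per cell and fewer cells that make it cannot be told apart in such bulk samples, which holds for every result here. The filter on dim probes bears on 2 members: Chek1 and Neil3 passed it only through the control arrays.

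**Figure D1:**
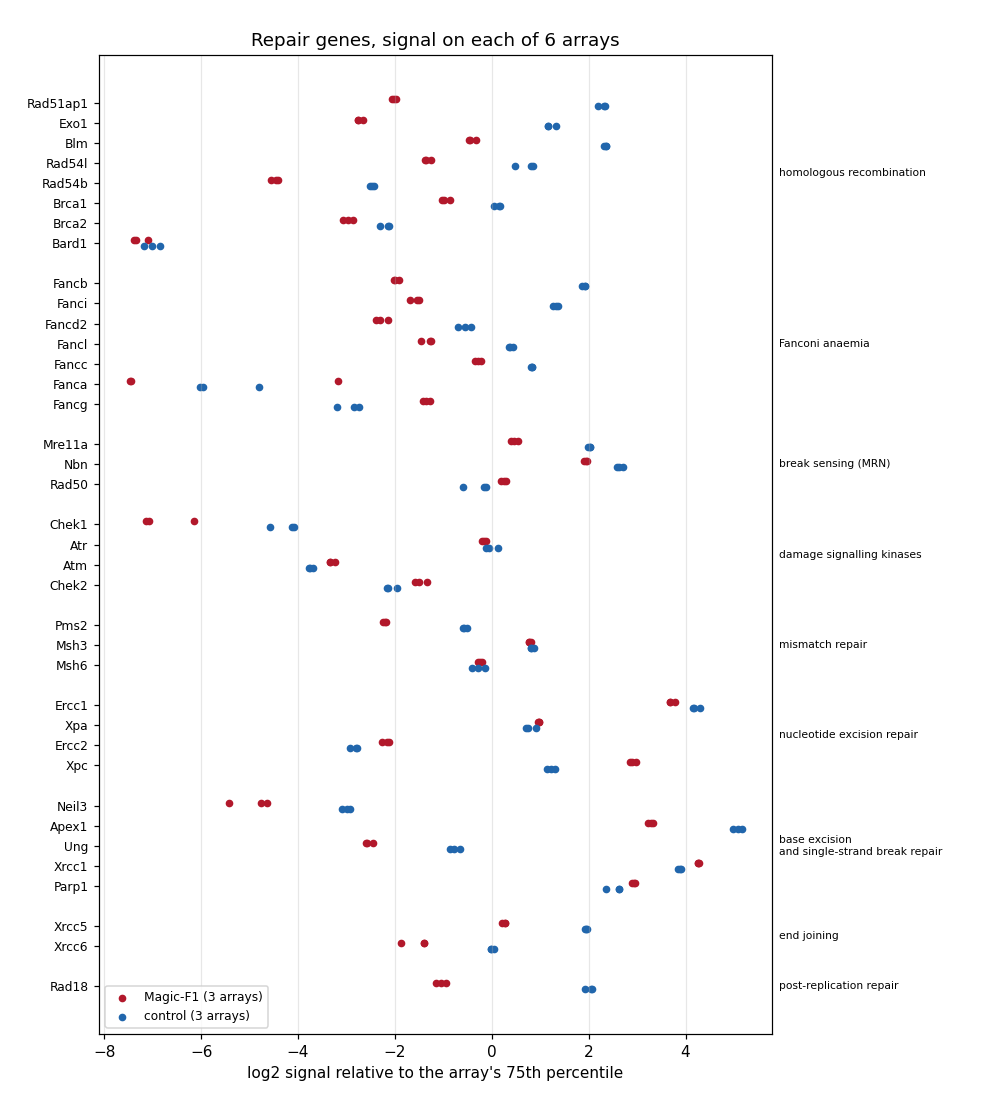
Log2 signal of the 37 repair genes relative to the 75th percentile of each array (x axis), grouped by repair route, with 1 point for each of 3 Magic-F1 (red, upper) and 3 control arrays (blue, lower). The arrays of a group lie close together for most genes, and the groups overlap for Bard1, Fanca, Atr, Msh3 and Msh6.

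The 3 values of the Magic-F1 group did not overlap those of the control group for 32 members, 23 lower and 9 higher, where 49.5% of all tested genes were lower without overlap and 41.1% higher. Among the tested members the SD within a group was between 0.0125 and 0.555 on the log2 scale, and the widest was that of Chek1 in the Magic-F1 cells. Slide 1 held replicates 1 and 3 of both groups, and slide 2 held replicate 2 of both. The 32 members without overlap are the 32 called ones. Their sign was the same on both slides, which the lack of overlap makes certain, so it is no separate support. The direction of small changes depends on how the arrays are scaled. Scaling to 247 spots of spiked-in transcripts raised each log2 change by 0.461, so that the median of all tested genes was 0.29. The split of all called genes was then 41.1% lower, where it was 54.6% lower with the 75th percentile. Of the members, 22 were lower and 12 higher under that scaling: Ercc1 was no longer called, and Atr, Msh3 and Msh6 were called higher. The median of all 37 members, with the untested Bard1 and Fanca, minus that of all tested genes was −0.938. No such scaling can change this difference. It was −0.556 with normexp background and an offset of 50.

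**Figure D2:**
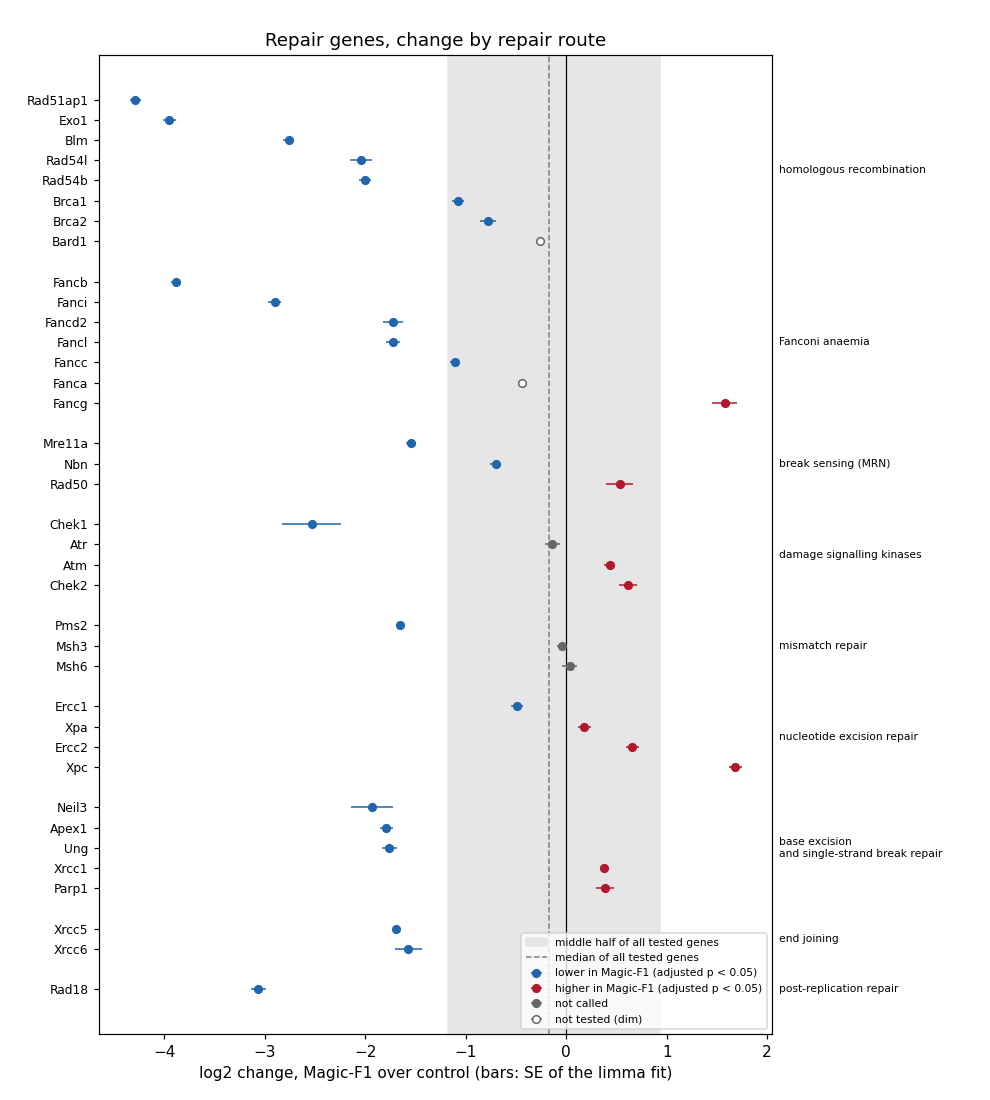
Log2 change of each repair gene, Magic-F1 over control (x axis; bars, SE of the limma fit, n = 3 arrays each), with the range between the quartiles of all tested genes shaded (−1.17 to 0.93) and their median dashed (−0.17). Most genes of recombination and the Fanconi route and both Ku genes (Xrcc5 and Xrcc6) lie left of the shaded range, and Xpc and Fancg lie right of it. Under spike-in scaling all points move right by 0.461, and Atr, Msh3 and the untested Bard1 and Fanca then lie right of 0.

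The promoters of the members were read for letters known to be bound by cell cycle regulators. RefSeq's table (assembly GRCm38.p6) holds the promoter, 250 bases before to 50 after the gene's start, for 31 of the 37 members. The E2F letters TTTCCCGC, TTTGGCGC, TTTGCCGC or TTTCGCGC, on either strand, occurred in 7 of these 31 genes (22.6%), where they occurred in 4.48% of the tested genes with a listed promoter and in 2.60% of all listed genes. The matches did not follow the direction of change. They occurred in 2 of 19 members that were lower (Brca2 and Xrcc6), in 2 of 7 that were higher (Fancg and Chek2), in Msh3 and Msh6, which did not pass the test, and in Bard1, which was not tested. In Msh3 a match of TTTCGCGC overlaps one of TTTGGCGC. The CCAAT letters of NF-Y occurred in 58.1% of the members' genes and 42.2% of the tested genes. The letters of the cell cycle homology region, TTTGAA or TTCGAA, occurred in 12.9% of the members' genes, 16.4% of the tested genes and 48.3% of 29 genes among the proliferation markers. A match is a description of the letters and shows no binding. The promoters below are those of the 3 called members with an E2F match and the largest changes, and that of Msh6, the tested member with a listed promoter and the smallest change. Capitals mark the E2F letters, which begin at −52 in Fancg, −46 in Xrcc6, −168 in Brca2 and 15 in Msh6, counted in bases from the gene's start.
Fancg, 2.98-fold higher, chr4:43010252-43010551, minus strand: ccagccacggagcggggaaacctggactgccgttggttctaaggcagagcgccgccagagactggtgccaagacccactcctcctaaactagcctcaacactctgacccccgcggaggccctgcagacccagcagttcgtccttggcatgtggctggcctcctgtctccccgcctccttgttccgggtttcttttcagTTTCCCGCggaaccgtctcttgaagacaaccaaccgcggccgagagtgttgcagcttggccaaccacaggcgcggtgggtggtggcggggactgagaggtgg
Xrcc6, 2.97-fold lower, chr15:82016119-82016418, plus strand: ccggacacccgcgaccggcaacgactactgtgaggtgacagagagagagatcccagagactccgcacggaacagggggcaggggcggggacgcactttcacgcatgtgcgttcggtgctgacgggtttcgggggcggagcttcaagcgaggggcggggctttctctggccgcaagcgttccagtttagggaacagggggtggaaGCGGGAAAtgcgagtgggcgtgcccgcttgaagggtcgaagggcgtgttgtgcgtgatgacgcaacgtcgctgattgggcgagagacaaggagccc
Brca2, 1.71-fold lower, chr5:150522371-150522670, plus strand: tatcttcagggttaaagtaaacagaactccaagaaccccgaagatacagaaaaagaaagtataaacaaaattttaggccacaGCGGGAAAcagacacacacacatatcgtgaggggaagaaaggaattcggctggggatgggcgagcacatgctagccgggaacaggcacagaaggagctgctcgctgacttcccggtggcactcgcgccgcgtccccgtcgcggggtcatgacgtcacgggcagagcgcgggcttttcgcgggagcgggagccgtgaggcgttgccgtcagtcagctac
Msh6, not called, chr17:87974800-87975099, plus strand: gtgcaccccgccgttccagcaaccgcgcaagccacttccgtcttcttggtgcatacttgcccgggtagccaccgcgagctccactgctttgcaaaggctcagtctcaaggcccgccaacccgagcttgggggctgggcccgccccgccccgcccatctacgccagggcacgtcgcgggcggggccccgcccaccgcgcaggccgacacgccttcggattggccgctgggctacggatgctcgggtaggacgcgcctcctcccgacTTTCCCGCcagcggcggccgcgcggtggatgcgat
The same letters TTTCCCGC stand in all 4 windows, on the gene's strand in Fancg and Msh6 and on the opposite strand in Xrcc6 and Brca2, beside a rise, a lack of call and 2 falls.

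Of the homologous recombination genes, 7 of 7 tested members fell, and the median over the 8 listed was −2.02. The largest fall was that of Rad51ap1, which helps the invasion of a matching DNA strand. Its log2 signal was −1.98, −2.01 and −2.05 in Magic-F1 replicates 1 to 3, and 2.33, 2.31 and 2.18 in control replicates 1 to 3. The groups lay far apart, and the signal was 19.5-fold lower in Magic-F1 (log2 change −4.29, SE 0.057, adjusted p = 3.33e-08). Only 1.99% of all tested genes had a lower log2 change. Its probe lies at chr6:126873437-126873473 (mm9, as the files give it). Exo1, a nuclease that resects broken ends for recombination and also acts in mismatch repair, had log2 signals of −2.66, −2.76 and −2.76 in Magic-F1 and 1.17, 1.17 and 1.33 in control cells. It was 15.5-fold lower (log2 change −3.95, SE 0.065, adjusted p = 5.64e-08), by a probe at chr1:177838682-177838741 (mm9). Blm, the helicase that unwinds recombination intermediates, stood at −0.47, −0.44 and −0.32 in Magic-F1 and 2.32, 2.36 and 2.37 in control cells, 6.78-fold lower.

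The motor proteins Rad54l and Rad54b, which act during strand invasion, both fell. Rad54l had log2 signals of −1.39, −1.35 and −1.26 in Magic-F1 and 0.80, 0.85 and 0.48 in control cells, with control replicate 3 the lowest of its group, and was 4.11-fold lower (SE 0.108, adjusted p = 5.07e-06). Rad54b, a dimmer probe at −4.57, −4.41 and −4.45 in Magic-F1 and −2.52, −2.47 and −2.43 in control cells, was 3.999-fold lower (SE 0.060, adjusted p = 4.54e-07). The mediators Brca1 and Brca2 fell as well. Brca1, which directs breaks into recombination, had log2 signals of −0.87, −1.02 and −0.99 in Magic-F1 and 0.16, 0.14 and 0.04 in control cells, 2.11-fold lower (log2 change −1.08, SE 0.062, adjusted p = 7.72e-06). Brca2, which acts at resected breaks, had −3.08, −2.97 and −2.87 in Magic-F1 and −2.31, −2.14 and −2.13 in control cells, 1.71-fold lower (log2 change −0.78, SE 0.080, adjusted p = 0.000129). Bard1, the partner of Brca1, was below background on all 6 arrays, and no fold is given.

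Fanconi anaemia genes were lower for 5 of 6 tested members, and 1, Fancg, was higher. The listed members are subunits of the core complex (Fanca, Fancb, Fancc, Fancg and Fancl) and the pair that this complex ubiquitinates (Fancd2 and Fanci). Within the core complex the subunits went different ways. Fancb had log2 signals of −1.92, −2.01 and −2.02 in Magic-F1 and 1.92, 1.87 and 1.92 in control cells, 14.8-fold lower (log2 change −3.89, SE 0.048, adjusted p = 2.82e-08), by a probe at chrX:161434946-161435005 (mm9). Fancl, the ubiquitin ligase subunit, stood at −1.25, −1.28 and −1.47 in Magic-F1 and 0.35, 0.38 and 0.44 in control cells, 3.30-fold lower. Fancc stood at −0.35, −0.28 and −0.23 in Magic-F1 and 0.80, 0.83 and 0.84 in control cells, 2.16-fold lower. Fancg stood at −1.43, −1.28 and −1.36 in Magic-F1 and −2.74, −2.85 and −3.20 in control cells, 2.98-fold higher (log2 change 1.58, SE 0.126, adjusted p = 3.75e-05). A second Fancg probe was well above background on all Magic-F1 arrays and on no control array, and was at least 15.5-fold higher. Fanca was well above background on 1 array of each group only. Its Magic-F1 replicate 3 read −3.18 and replicates 1 and 2 read −7.48 and −7.46, and the control arrays read −5.95, −6.02 and −4.81.

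The pair ubiquitinated by the core complex fell on both sides. Fanci had log2 signals of −1.70, −1.55 and −1.50 in Magic-F1 and 1.32, 1.37 and 1.27 in control cells, 7.48-fold lower (log2 change −2.90, SE 0.067, adjusted p = 1.67e-07). Fancd2 had −2.32, −2.15 and −2.40 in Magic-F1 and −0.43, −0.56 and −0.71 in control cells, 3.30-fold lower (log2 change −1.72, SE 0.096, adjusted p = 6.57e-06). Neither pair of groups overlapped, and a second Fancd2 probe fell by 1.998 on the log2 scale.

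The break-sensing complex of Mre11a, Rad50 and Nbn, which binds broken ends and recruits Atm, did not move as a unit. Nbn had log2 signals of 1.95, 1.89 and 1.96 in Magic-F1 and 2.62, 2.58 and 2.71 in control cells, 1.63-fold lower, with a second probe at −0.76. Rad50 had 0.30, 0.18 and 0.24 in Magic-F1 and −0.11, −0.17 and −0.60 in control cells, 1.45-fold higher (log2 change 0.53, SE 0.135, adjusted p = 0.00967), with control replicate 3 the lowest. For Mre11a, the nuclease of the complex, the direction differed between the 2 tested probes. The brighter probe had 0.40, 0.53 and 0.46 in Magic-F1 and 1.996, 2.02 and 2.03 in control cells, 2.93-fold lower (adjusted p = 6.33e-07). The dimmer probe had −0.91, −1.01 and −0.90 in Magic-F1 and −1.76, −2.03 and −1.66 in control cells, 1.84-fold higher (adjusted p = 0.000265). The sequences of both 60-base probes are shown because Mre11a was the only member whose probes were called in opposite directions.
Mre11a brighter probe, chr9:14637146-14638095 (mm9, plus strand): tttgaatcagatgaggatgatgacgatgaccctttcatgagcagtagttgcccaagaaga
Mre11a dimmer probe, chr9:14639639-14639698 (mm9, plus strand): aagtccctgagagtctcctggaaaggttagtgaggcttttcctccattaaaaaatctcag
The files place the dimmer probe downstream of the brighter one and name both Mre11a. The brighter probe was also named through a RefSeq transcript, and the dimmer one by the files alone. Whether the dimmer probe's site is exonic was not analysed here.

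**Figure D3:**
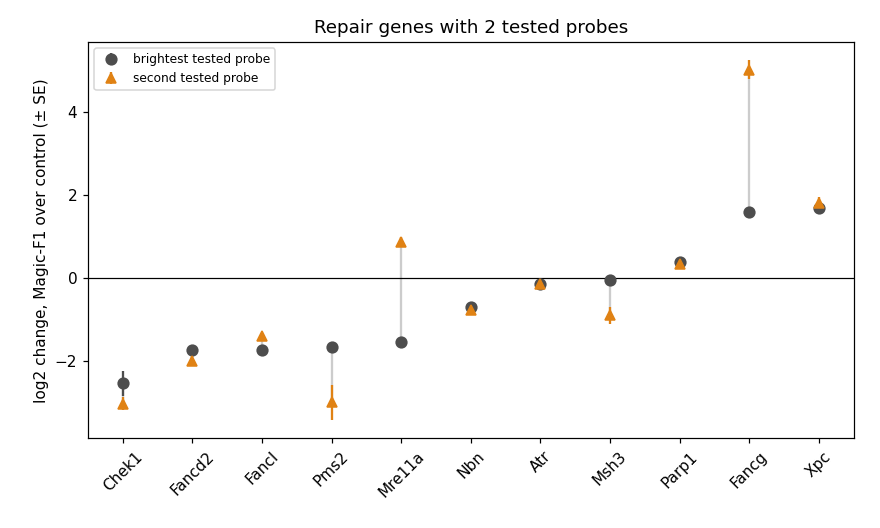
Log2 change, Magic-F1 over control (y axis, ± SE of the limma fit), of the brightest tested probe (circle) and the second tested probe (triangle) of the 11 repair genes with 2 tested probes. For Mre11a they lie on opposite sides of 0, at −1.55 and 0.88, while both Fancl probes lie below 0 and both Xpc probes above it. The second probes of Fancg and Pms2 and both Chek1 probes were below background on all arrays of 1 group, so their plotted changes are only nominal.

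Of the 11 members with 2 tested probes, 8 had both called in the same direction, 1 (Mre11a) had them called in opposite directions, and Atr and Msh3 had only the dimmer probe called. Among the 8, the second probes of Fancg and Pms2 and both probes of Chek1 were below background on all arrays of 1 group, so their changes are known only as bounds. For Xpc (1.68 and 1.81), Parp1 (0.39 and 0.34), Fancl (−1.72 and −1.40) and Nbn (−0.70 and −0.76) the log2 changes of both probes were close.

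Among the damage signalling kinases 1 member was lower, 2 were higher and 1 was not called. Atr and its target Chek1 respond to stalled DNA copying, and Atm and its target Chek2 respond to double-strand breaks. Chek1 was below background on all 3 Magic-F1 arrays, with log2 signals of −6.15, −7.14 and −7.08, and well above it on the control arrays at −4.08, −4.57 and −4.12. The fit, which used those values below background, called Chek1 lower in Magic-F1 (adjusted p = 0.00025). As a bound, which was not itself tested, Chek1 was at least 2.07-fold lower, and a second probe at least 1.98-fold lower. Atr had −0.11, −0.16 and −0.20 in Magic-F1 and −0.07, −0.12 and 0.14 in control cells, and its groups overlapped (log2 change −0.14, SE 0.079, adjusted p = 0.146). A second Atr probe passed the test with the same log2 change of −0.14 (adjusted p = 0.0291). The brighter Atr probe was called higher under spike-in scaling and lower with normexp background (log2 change −0.154, adjusted p = 0.0331). Atm had −3.34, −3.23 and −3.34 in Magic-F1 and −3.78, −3.69 and −3.74 in control cells, 1.35-fold higher (log2 change 0.43, SE 0.055, adjusted p = 0.000362), and its direction turned with normexp background and an offset of 50, to −0.033 (adjusted p = 0.502). Chek2 had −1.58, −1.34 and −1.49 in Magic-F1 and −2.16, −1.96 and −2.15 in control cells, 1.53-fold higher (log2 change 0.62, SE 0.088, adjusted p = 0.00069).

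Of the mismatch repair members 1 was lower and 2 were not called. Msh3 and Msh6, which recognise mismatches, did not pass the test. Msh3 had log2 signals of 0.77, 0.76 and 0.82 in Magic-F1 and 0.81, 0.86 and 0.81 in control cells (log2 change −0.045, SE 0.044, adjusted p = 0.362). A dimmer Msh3 probe was lower (log2 change −0.89, adjusted p = 0.00575). Msh6 had −0.21, −0.24 and −0.28 in Magic-F1 and −0.28, −0.41 and −0.14 in control cells (log2 change 0.033, SE 0.076, adjusted p = 0.698). Both were called higher under spike-in scaling, at 0.42 for Msh3 and 0.49 for Msh6. With quantile normalization Msh3 was called lower (log2 change −0.122, adjusted p = 0.0294). Pms2, an endonuclease subunit, had −2.24, −2.21 and −2.19 in Magic-F1 and −0.60, −0.57 and −0.52 in control cells, 3.14-fold lower (log2 change −1.65, SE 0.046, adjusted p = 3.26e-07). Its second probe was below background in Magic-F1 and at least 3.15-fold lower.

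Of the nucleotide excision repair members 3 were higher and 1 was lower. Xpc, the factor that finds distorted DNA, had log2 signals of 2.86, 2.97 and 2.89 in Magic-F1 and 1.31, 1.23 and 1.14 in control cells. This was the largest rise among the brightest probes of the members, 3.21-fold (log2 change 1.68, SE 0.063, adjusted p = 1.1e-06), and 85.7% of all tested genes had a lower log2 change. Ercc2, a helicase of the repair and transcription factor TFIIH, had −2.16, −2.27 and −2.13 in Magic-F1 and −2.93, −2.79 and −2.81 in control cells, 1.58-fold higher. Xpa, which holds the repair complex together at the lesion, had 0.97, 0.96 and 0.98 in Magic-F1 and 0.74, 0.72 and 0.91 in control cells, 1.13-fold higher (adjusted p = 0.0375). That call of Xpa was lost without any 1 of 5 arrays, the exception being control replicate 3 (adjusted p = 0.0782 to 0.115 in the 5 fits). Ercc1, which forms the nuclease that cuts on the 5′ side of the lesion, had 3.68, 3.68 and 3.78 in Magic-F1 and 4.17, 4.15 and 4.29 in control cells, 1.41-fold lower (adjusted p = 0.000323), and lost its call under spike-in scaling (log2 change −0.030, adjusted p = 0.706).

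Of the base excision and single-strand break repair members 3 were lower (Apex1, Ung and Neil3) and 2 were higher (Xrcc1 and Parp1). Apex1, the nuclease that cuts at sites without a base, had log2 signals of 3.28, 3.23 and 3.33 in Magic-F1 and 5.09, 5.16 and 4.97 in control cells, 3.47-fold lower (log2 change −1.79, SE 0.064, adjusted p = 8.96e-07). Ung, which removes uracil, had −2.44, −2.57 and −2.59 in Magic-F1 and −0.79, −0.87 and −0.65 in control cells, 3.39-fold lower. Neil3, which removes oxidised bases, had −5.42, −4.76 and −4.63 in Magic-F1, where 2 of 3 arrays were well above background, and −3.09, −2.99 and −2.92 in control cells, 3.82-fold lower. Xrcc1, the scaffold of single-strand break repair, had 4.25, 4.25 and 4.27 in Magic-F1 and 3.84, 3.91 and 3.89 in control cells, 1.30-fold higher (adjusted p = 0.000229). Parp1, the sensor of such breaks, had 2.88, 2.95 and 2.94 in Magic-F1 and 2.63, 2.63 and 2.35 in control cells, 1.31-fold higher (adjusted p = 0.00598), with control replicate 3 the lowest.

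The subunits of Ku, which cap broken ends for end joining, both fell. Xrcc5 had log2 signals of 0.27, 0.27 and 0.21 in Magic-F1 and 1.96, 1.95 and 1.93 in control cells, 3.24-fold lower (log2 change −1.69, SE 0.044, adjusted p = 2.49e-07). Xrcc6 had −1.41, −1.39 and −1.88 in Magic-F1 and 0.05, −0.01 and −0.01 in control cells, 2.97-fold lower (log2 change −1.57, SE 0.137, adjusted p = 5.83e-05), with Magic-F1 replicate 3 the lowest. Rad18, which ubiquitinates the replication clamp so that damage can be bypassed, had −0.94, −1.04 and −1.16 in Magic-F1 and 2.07, 1.93 and 2.06 in control cells. It was 8.37-fold lower (log2 change −3.07, SE 0.075, adjusted p = 2.09e-07), by a probe whose ends lie at chr6:112594728-112599634 (mm9).

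Other genes of the same routes were listed beside the 37. Of 99 such genes found on the arrays 90 were tested. Of these 55 were lower, 26 higher and 9 not called, where 48.7% of all tested genes were lower and 40.5% higher. The median log2 change over the 99 was −0.54. The other recombination genes were lower for 15 and higher for 5 of 21, with a median of −1.31. The subunit Rpa3 of the single-strand binding complex fell by 2.60 on the log2 scale, the resolvase Gen1 was at least 4.35-fold lower and Rad51c at least 3.20-fold lower. In the Fanconi route 3 of 4 tested genes were lower and 1 was higher. Ube2t, the ubiquitin-conjugating enzyme that acts with Fancl, was at −2.55 and Usp1, which removes that ubiquitin from Fancd2, at −1.59 (log2 changes), Fancm at −0.68 and the core subunit Fance at 0.56. Other signalling genes were lower for 10 and higher for 2 of 14, among them the phosphatase Cdc25c (log2 change −4.29), the fork protection factor Tipin (−2.37), the histone variant H2ax (−1.74) and the checkpoint clamp subunit Rad1 (−1.17).

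Among the remaining routes the directions were mixed, as they were over all tested genes (48.7% lower and 40.5% higher). The counts of the nucleotide excision and bypass lists lie near those shares. Other mismatch repair genes were lower for 2 and higher for 1 of 5, among them Pms1 (log2 change −1.05) and the meiotic Msh5 (1.29). Other nucleotide excision repair genes were lower for 6 and higher for 5 of 12, with the TFIIH subunit Gtf2h2 at −2.04, Ercc8 at −1.22, and Ercc4, the nuclease partner of Ercc1, at 1.37 (log2 changes), while Ercc6 was at least 1.37-fold higher. Other base excision genes were lower for 11 and higher for 3 of 14, led by the glycosylase Tdg (log2 change −2.39), the ligases Lig1 (−2.25) and Lig3 (−1.58) and the glycosylase Mutyh (−1.63). Other end joining genes were higher for 4 and lower for 2 of 8. The nuclease Dclre1c (log2 change 1.77), the polymerase Polm (1.76) and the Ku-dependent kinase Prkdc (1.10) were higher, and Polq, a polymerase of an alternative joining route, was lower (−2.76, with 1 of 3 Magic-F1 arrays well above background). So Prkdc was higher where both Ku subunits were lower. Other bypass and direct reversal genes were lower for 6 and higher for 5 of 12. Mgmt, which removes alkyl groups from guanine, was 18.8-fold higher (log2 change 4.23) and the bypass polymerase Poli at least 1.62-fold higher. Alkbh3, a dealkylating enzyme, was at −1.79 and Ube2b, the conjugating enzyme that acts with Rad18, at −1.52 (log2 changes).

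**Figure D4:**
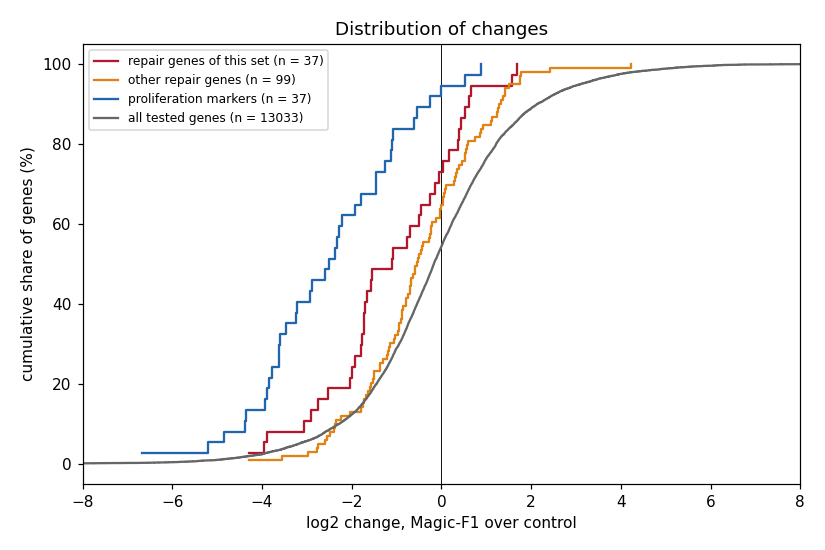
Cumulative share of genes (y axis, %) by log2 change, Magic-F1 over control (x axis, shown from −8 to 8), for the 37 repair genes, 99 other repair genes, 37 proliferation markers and all 13033 tested genes. The medians lie at −1.11, −0.54, −2.50 and −0.17 in that order. Genes not tested are included in each set but the last.

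Proliferation markers were lower together with these genes. Of 35 tested, 32 were lower and 2 higher, with a median log2 change of −2.50 over 37. Their summed linear signal was 233 to 241 in Magic-F1 and 682 to 717 in control cells. Pcna was the brightest of them in both groups (log2 signal 6.91 in Magic-F1 and 6.93 in control), so it weighs most in the sums. The largest changes were those of Rrm2 (log2 change −6.66), Ccnb1 (−5.21), Ccne2 (−4.85) and Tyms (−4.38). The 2 that were higher, E2f1 (0.89) and Cdt1 (0.53), and the 1 that was not called, Pcna (−0.018), were named after their values were seen. The part of the share of dividing cells in the repair gene results was not tested.

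The size of several changes was smaller under the alternative that combines normexp background with an offset of 50, which itself shrinks the folds of dim probes. With this setting in place of the scanner's processed signal, 24 members were lower and 8 higher, and the median over the 37 was −0.74. The fitted folds of 8 members became over 1.5 times smaller, that of Chek1 being nominal because it was below background in Magic-F1. Among these the log2 change was −0.49 for Chek1, −0.74 for Neil3, −0.84 for Rad54b, 0.78 for Fancg, −1.17 for Ung, −2.97 for Exo1, −3.17 for Fancb and −3.55 for Rad51ap1. All 8 passed the test with normexp in the same direction. Taking the mean of a gene's probes instead of the brightest gave a log2 change of −0.34 for Mre11a, and Msh3 was then called lower at −0.47. The same means were 3.29 for Fancg and −2.32 for Pms2, but each rests in part on a probe below background on all arrays of 1 group.

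**Figure D5:**
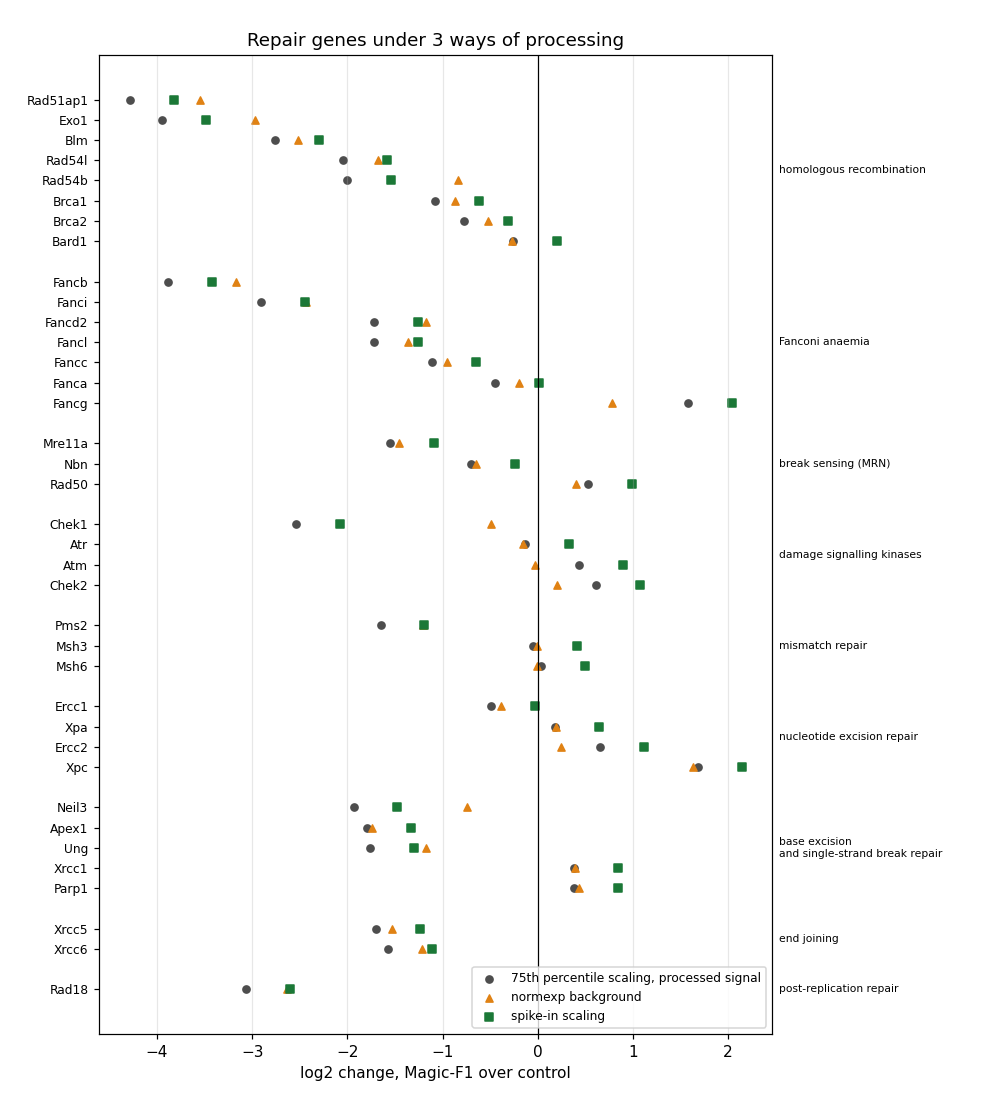
Log2 change of each repair gene, Magic-F1 over control (x axis), with the scanner's processed signal scaled to the 75th percentile (circles), with normexp background and an offset of 50 (triangles) and with scaling to the spiked-in transcripts (squares). Normexp moves the largest falls toward 0 and puts Atm at −0.033. Spike-in scaling moves all points right, which takes Atr, Msh3 and the untested Bard1 and Fanca past 0.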

How the data were processed

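Per the labels' protocols, total RNA of 6 samples was spiked with 10 viral polyadenylated transcripts, labelled with Cy3 and hybridised to 1-colour Agilent arrays. Per the file headers, the intensity of each spot was background-subtracted by Agilent Feature Extraction 10.5.1.1 without normalization between arrays. A table of log2 values was deposited too. It equals the log2 of that intensity within 5e-09 for 4 arrays and differs for both replicates numbered 1 (SD 0.456 in Magic-F1 and 0.472 in control), so it was used as an alternative only. Probe positions are those of the files (mm9).

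Outlier spots (59 to 89 per array) were left out, log2 intensities were scaled to the 75th percentile of each array's 43379 non-control spots, and replicate spots were averaged. Tested were the 21190 of 41174 probes that stood well above background on each of the 3 arrays of at least 1 group. Names came from RefSeq accessions for 25097 probes and from the files for 16077, and only RefSeq symbols were counted as genes, a limit set after a first run had been seen. A gene was represented by its brightest tested probe. The comparison used limma 3.58.1 (R 4.3.3; lmFit and eBayes, 2-sided) with a single term for group, and genes were called at a Benjamini-Hochberg adjusted p under 0.05 over all tested probes. For a bound ("at least N-fold") the dim probe was raised, on each array, to the lowest signal well above background where it lay under it. Summed signals are sums of linear values relative to the 75th percentile. The test was tried on simulated data. Precision is limited by the number of arrays.

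The members and lists were chosen with earlier results of these data known. All 37 members were named, and up to 4 genes of each other repair list and of the proliferation markers, called ones first and by size of change. Some genes of these lists are counted but not reported by name here. Cell type markers were counted as lists. The main fit did not pair the samples by replicate number. Correlations of same-numbered deviations were −0.00292, 0.108 and 0.0689, where those of unlike numbers ran from −0.115 to 0.0484. These values do not settle whether the numbers pair the samples. Alternatives of scaling, background (normexp with an offset of 50), filter, probe choice, slide, variance model and left-out arrays were run.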

Additional observations from a re-analysis of the deposited data

How the results depend on the processing

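Over 20 alternatives, 21 to 24 members were lower and 8 to 12 higher, and 27 members were called in the same direction under each alternative that gave a test. The median log2 change of the 37 members (−1.11) was −0.74 with normexp background and an offset of 50, −0.98 with the median of each array, −0.65 with spike-in scaling and −1.38 within slide 2, where 1 array per group allows no test. Leaving out 1 array gave −1.41 to −1.11. The value of −1.41 came without Magic-F1 replicate 3, and Fanca, which was not tested, was then at −1.87. The median of each array raised all log2 changes by 0.129. Reversed values were −0.033 for Atm with normexp background, and 0.32 for Atr and 0.42 for Msh3 with spike-in scaling. With slide as a block 23 members were lower and 9 higher. The replicate block gave 23 lower and 9 higher among 11577 called genes, where 11618 were called without it, and it changed no member's call. Xpa lost its call without filter on dim probes (adjusted p = 0.117), under quantile normalization (0.176) and within slide 1 (0.195). Chek1 and Neil3 were not tested when probes had to be above background on all 6 arrays. An alternative chosen after seeing the data counted clones and predicted loci as genes. It gave 14907 tested genes, 13163 called and a median of −0.146, with the same 23 and 9 members called.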
